A study of Mus musculus with 14 samples.

Results

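The genes of the CatSper channel, the calcium channel of the sperm tail, were followed in whole testis of WT and Glis3KO2 mice at 1 and 4 weeks of age. They are Catsper1, Catsper2, Catsper3, Catsper4 and Catsperb, taken as every non-control probe whose gene name in the scanner files is one of these symbols or an earlier symbol that a probe description ties to one of them. The rule found 5 of the 27670 genes on the array and 8 of its 41174 probes: 2 for Catsper1, 1 each for Catsper2, Catsper3 and Catsper4, and 3 for Catsperb, which the files list as 4932415G16Rik. Glis3 encodes a zinc finger transcription factor. Mice that lack its function carry the label Glis3KO2, and the labels do not describe the allele. All mice were C57BL/6, pups were kept with their mothers and none was treated. The 1-week groups held 4 samples of each genotype. The 4-week groups held 3 of each, at an age that the series description gives as 3 weeks and that is given here as the sample labels have it.

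CatSper is a channel of the plasma membrane of the sperm tail. CATSPER1 to CATSPER4 each contribute 1 part of the pore, and auxiliary subunits such as CATSPERB cover it on the outside of the membrane. The channel opens when the inside of the sperm turns alkaline, and the calcium it admits drives hyperactivated swimming. Male mice without any 1 of the pore proteins are infertile. In the testis the genes are transcribed in germ cells during and after meiosis, and the germ cells of the first week of life have not reached these stages.

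Each measurement rests on a probe of 60 bases, and the 7 probes below carry the results. They are printed 5′ to 3′ as deposited, and capitals mark a stretch of 14 bases that is present as 2 copies in the Catsper2 probe.
Catsper1, probe A_51_P220848: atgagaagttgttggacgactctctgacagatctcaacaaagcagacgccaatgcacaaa
Catsper1, probe A_52_P1087486: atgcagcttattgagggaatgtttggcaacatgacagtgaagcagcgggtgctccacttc
Catsper2, probe A_51_P471830: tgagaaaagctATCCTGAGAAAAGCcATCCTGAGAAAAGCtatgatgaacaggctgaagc
Catsper3, probe A_52_P246233: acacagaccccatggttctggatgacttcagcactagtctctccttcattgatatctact
Catsper4, probe A_51_P234440: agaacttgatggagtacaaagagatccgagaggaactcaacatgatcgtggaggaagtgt
Catsperb, probe A_52_P343103: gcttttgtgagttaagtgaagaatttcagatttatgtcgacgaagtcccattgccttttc
Catsperb, probe A_51_P242565: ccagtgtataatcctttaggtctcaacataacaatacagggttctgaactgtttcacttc

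Positions are those of the deposited annotation on the mouse build mm7. The Catsper1 probes lie on the plus strand at chr19:5235199-5236255, which spans 1057 bases, and chr19:5236276-5238705, which spans 2430. The Catsper2 probe lies on the minus strand at chr2:121138393-121138452 and the Catsper3 probe on the plus strand at chr13:54895989-54896048, each in 1 unbroken run of 60 bases. The Catsper4 probe covers chr4:133591777-133592137 on the minus strand and the first Catsperb probe chr12:99120622-99120933 on the plus strand, spans of 361 and 312 bases. The other Catsperb probe shown covers chr12:99120051-99120596, a span of 546 bases. A span longer than the probe means that the probe matches the genome in pieces on either side of a gap, as a probe across an exon junction does. No exon map of mm7 was used here, so exons are not numbered. The last Catsperb probe, A_51_P386448, lies apart from the other Catsperb probes, at chr12:99045663-99045722 on the plus strand. It is named only by its number below, because its 1-week values differ from those of the other Catsperb probes. Of the Catsperb probes, A_52_P343103 was designed on a RefSeq transcript and the other 2 on cDNA clones.

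Signals are log2 values with the 75th percentile of each array's non-control probes set to 0, so 0 is the level of a fairly bright probe. They serve to compare 1 probe between samples and not 1 gene with another. "Well above background" is the scanner software's own flag. The flag held for 74.3% to 86.6% of non-control spots per array, and no CatSper spot was saturated. Precision is limited by how few arrays there are. Nothing in the labels states that samples of a group come from separate animals, so p-values measure only the spread between these samples, which may be technical. Glis3 itself, on 1 probe that may lie outside the disrupted part, was well above background on 4 of 4 WT arrays and 0 of 4 Glis3KO2 arrays at 1 week, and on no 4-week array, so it bears on the labels at 1 week only. At 1 week WT replicate 4, and at 4 weeks Glis3KO2 replicate 3, stood apart from their groups, and 1-week Glis3KO2 replicate 4 had a slide and a scan day that no other 1-week array shared. Values without them are given where a result rests on them. All 9 Sertoli cell markers looked up were well above background on every array, as the tissue label calls for.

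The first comparison asks when the channel genes appear. At 1 week Catsper1, Catsper4 and Catsperb, on the probes shown above, were not well above background on any of the 8 arrays. At 4 weeks the same probes were well above background on all 6. Catsper2 and Catsper3 were well above background on all 14 arrays. On the probes shown, 2 of the 5 genes were thus measurable at 1 week and 3 had only an upper bound.

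Among the pore genes with only a bound, the brighter Catsper1 probe read 2.32, 2.61 and 2.44 on 4-week WT replicates 1, 2 and 3, against 1-week WT signals between -9.21 and -7.35. Set against the background level of the 1-week arrays, which is the lowest signal among probes well above background or the probe's own signal where that is higher, Catsper1 was at least 822-fold higher in 4-week WT. The other Catsper1 probe gave at least 546-fold. Catsper4 read 1.55, 1.91 and 1.78 in 4-week WT and was at least 502-fold higher than at 1 week. For the auxiliary subunit gene Catsperb the 4-week WT signals were 1.34, 1.16 and 1.30, at least 359-fold higher, and the second probe shown gave at least 211-fold. Probe A_51_P386448, which was well above background on 3 of 4 1-week WT arrays, rose by less in WT, by 2.33 on the log2 scale (SE 0.68, limma adjusted p = 0.0154), so the Catsperb probes disagree on the size of the rise. These bounds are set by the 1-week background and say nothing of which gene rose most. They hold only for the background level used. With normexp background correction the Catsper1 log2 difference in WT was 7.24, against a fitted 10.56 without it.

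Catsper2 and Catsper3, which also encode pore subunits, can be given as measured folds. Catsper2 read -0.99, -0.99, -1.07 and -0.97 in 1-week WT and 5.48, 5.63 and 5.64 in 4-week WT, a 96.1-fold rise (log2 difference 6.59, SE 0.08, limma adjusted p = 1.24e-08). Catsper3 read -4.07, -4.22, -4.54 and -4.28 in 1-week WT and 2.86, 3.06 and 2.97 in 4-week WT, a 151-fold rise (log2 difference 7.24, SE 0.13, limma adjusted p = 2.82e-08). The spread within each WT group was small beside these steps. All 5 genes were called higher at 4 weeks, where limma called 80.9% of 23466 genes, 31.2% higher and 49.7% lower, and the median log2 difference over all genes was -0.51.

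The genes also rose with age in Glis3KO2. Catsper2 rose 24.0-fold (log2 difference 4.58, SE 0.36) and Catsper3 rose 16.5-fold (4.05, SE 0.37), while Catsper1 was at least 105-fold, Catsper4 at least 71.8-fold and Catsperb at least 49.2-fold higher than at 1 week. The further probes of Catsper1 and Catsperb gave at least 70.8-fold and 29.9-fold, and Catsperb probe A_51_P386448 gave at least 1.26-fold. These bounds too hold only for the background level used. With normexp background correction the Catsper1 log2 difference in Glis3KO2 was 4.36, against a fitted 8.25 without it. All 5 were called higher, where limma called 52.6% of 21539 genes, 23.7% higher and 28.9% lower. Each age was hybridized on slides of its own, so age and slide cannot be told apart in either genotype. With slide as a random block all 5 genes were again called higher in both genotypes, but this block cannot separate age from slide either.

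**Figure D1:**
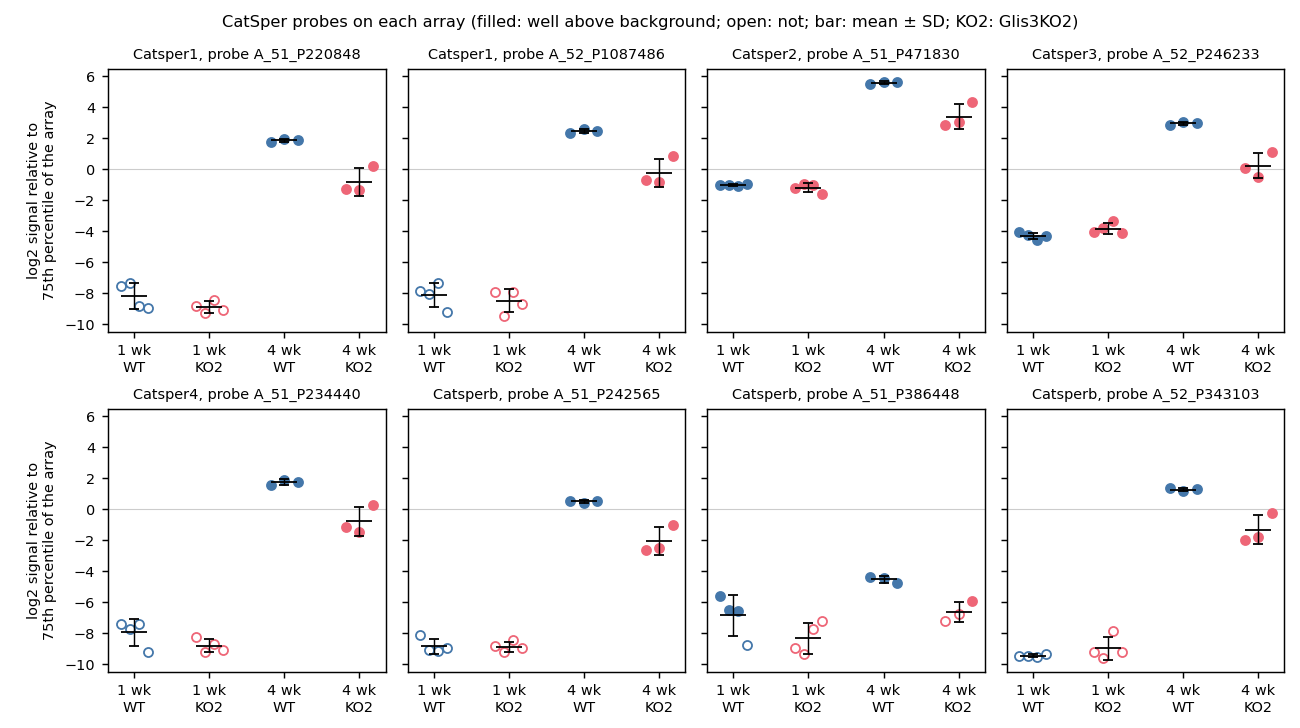
Each panel plots 1 CatSper probe, with the 4 groups on the x axis and the log2 signal relative to the 75th percentile of the array on the y axis. Points are arrays, filled where the probe was well above background, and bars are the mean ± SD. In every panel 4-week WT is the highest group, and all 4-week Glis3KO2 arrays lie below all 4-week WT arrays.

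The central comparison is between the genotypes at 4 weeks, where all 5 genes were lower in Glis3KO2, to between 15.0% and 22.0% of WT. The brighter Catsper1 probe read -0.69, -0.85 and 0.83 in Glis3KO2 replicates 1, 2 and 3, which makes 6.48-fold less Catsper1 signal than in WT (log2 difference -2.70, SE 0.44, limma adjusted p = 0.00184). Catsper1 encodes the subunit with a histidine-rich tail that is thought to sense pH. Its other probe read 1.77, 1.96 and 1.87 in WT and -1.28, -1.36 and 0.22 in Glis3KO2, a log2 difference of -2.68, so the 2 probes gave like values.

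Catsper2 read 2.84, 3.02 and 4.32 in Glis3KO2, 4.55-fold below WT (log2 difference -2.19, SE 0.38, limma adjusted p = 0.00243). Catsper3 read 0.06, -0.48 and 1.09 in Glis3KO2, 6.67-fold below WT (log2 difference -2.74, SE 0.38, limma adjusted p = 0.00119). Catsper4 read -1.17, -1.45 and 0.26 in Glis3KO2, 5.79-fold below WT (log2 difference -2.53, SE 0.43, limma adjusted p = 0.00223). In each pore gene the highest Glis3KO2 array lay below the lowest WT array.

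The auxiliary gene Catsperb moved like the pore genes. Its brighter probe read -1.96, -1.77 and -0.26 in Glis3KO2, 6.05-fold below WT (log2 difference -2.60, SE 0.44, limma adjusted p = 0.00209). The second probe shown read 0.55, 0.40 and 0.54 in WT and -2.66, -2.47 and -1.02 in Glis3KO2, a log2 difference of -2.55. Probe A_51_P386448 was dim, at -4.36, -4.42 and -4.77 in WT and -7.21, -6.76 and -5.90 in Glis3KO2, where it was well above background on 1 of 3 arrays, and its log2 difference was -2.10. All Catsperb probes thus separated the genotypes at 4 weeks without overlap.

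The 5 falls ran from -2.74 for Catsper3 to -2.19 for Catsper2 on the log2 scale. The 95% intervals of the log2 difference were -3.73 to -1.66 for Catsper1, -3.10 to -1.27 for Catsper2, -3.65 to -1.83 for Catsper3, -3.57 to -1.50 for Catsper4 and -3.64 to -1.56 for Catsperb. Each interval contains the estimates of the other 4 genes. All 5 were read on the same arrays, so the intervals do not compare 1 gene with another. Genotype differences were widespread at this age: limma called 69.2% of 21165 genes in either direction, 34% lower and 35.2% higher. The median log2 difference was -2.60 over the 5 genes and 0.03 over all genes. In RNA of whole testis, fewer cells that carry a transcript and less transcript per cell cannot be told apart.

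Glis3KO2 replicate 3 stood apart at 4 weeks. It retained 27.4% to 41.8% of the mean WT signal of the 5 genes, against 9.19% to 16.9% on replicates 1 and 2. Catsper2 was at 15.0%, 16.9% and 41.8% of WT on the 3 arrays, and Catsper3 at 13.4%, 9.19% and 27.4%. Without replicate 3 the log2 differences were -3.23 for Catsper1, -2.65 for Catsper2, -3.17 for Catsper3, -3.06 for Catsper4 and -3.13 for Catsperb, and all 5 were called. Replicate 3 lay on slide 5 with WT replicate 2, and the other 4-week arrays on slide 4. On slide 4 alone the log2 differences ran from -3.18 for Catsperb to -2.63 for Catsper2. On slide 5 alone, with 1 array per genotype and no test, they were -1.79, -1.31, -1.96, -1.66 and -1.42 in the order Catsper1, Catsper2, Catsper3, Catsper4 and Catsperb. With slide as a block all 5 genes were called.

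At 1 week no CatSper gene was called. Limma tested 3 of the 5 and called 0, with 1 at an unadjusted p under 0.05, while it called 10% of 22507 genes, 3.95% higher and 6.06% lower, and the median log2 difference over all genes was -0.06. Catsper2 read -1.21, -0.97, -0.98 and -1.58 in Glis3KO2, overlapping the WT arrays, with a log2 difference of -0.18 (95% interval -0.53 to 0.17, limma adjusted p = 0.392). On the linear scale the interval runs from 0.691-fold to 1.12-fold of WT. Without Glis3KO2 replicate 4, the lowest array, the difference was -0.053, and with slide as a block it was -0.039. Catsper3 read -4.03, -3.79, -3.34 and -4.13, with 3 of 4 arrays above every WT array and a log2 difference of 0.45 (95% interval 0.01 to 0.90, limma adjusted p = 0.135).

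The scaling of the arrays bears on the Catsper3 value. Under median scaling, which moved the median of all genes at 1 week to 0.19, its log2 difference was 0.71 (limma adjusted p = 0.0471). With quantile normalization it was 0.81 (limma adjusted p = 0.0443). The Catsper2 difference turned to 0.07 under median scaling and stayed uncalled. Catsperb entered the 1-week test only through probe A_51_P386448, which read -5.61, -6.47, -6.58 and -8.73 in WT and -8.97, -9.33, -7.71 and -7.22 in Glis3KO2. It was well above background on 3 of 4 WT arrays and 0 of 4 Glis3KO2 arrays, which gives a bound of at least 1.08-fold higher in WT. The fitted log2 difference was -1.46 (limma adjusted p = 0.179), and -2.09 without WT replicate 4, which lay within the Glis3KO2 range (limma adjusted p = 0.0437). Both fitted values are set against a group with no level above background, so neither measures a fold. Neither of the other Catsperb probes was well above background at this age.

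The difference between the genotype effects of the 2 ages was tested in 1 fit of all 14 arrays. For Catsper2 the effect at 4 weeks minus that at 1 week was -2.00 on the log2 scale (SE 0.40, limma adjusted p = 0.00142), and for Catsper3 it was -3.19 (SE 0.43, limma adjusted p = 0.000132). Both genes were measured in every group, so the genotype effect of these 2 pore genes differed between the ages. Each age had slides of its own, so a difference between ages is also 1 between sets of slides. Catsper1 (-2.31), Catsper4 (-1.69) and Catsperb (-3.08) passed the same threshold on their brightest probes. Those probes were at background in both genotypes at 1 week, so for them the 1-week term is not a measured effect and the test does not show a change of the effect with age. Catsperb probe A_51_P386448, with 1-week signal in WT alone, gave -0.64 (SE 0.94, limma adjusted p = 0.589). That probe was at background in 1-week Glis3KO2, so its value does not measure a change of the effect either. The Catsper4 value was close to the threshold, with a limma adjusted p of 0.0498, and was lost in 12 of 23 alternatives. In this fit 51% of 23544 genes were called, 21.6% in the lower and 29.3% in the higher direction.

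The accessory genes of the channel were also lower at 4 weeks. Of 11 accessory genes listed, 6 were matched to a probe and tested at 4 weeks, and all 6 fell, with a median log2 difference of -2.27. Of all genes 34% were called lower at this age. Catsperg2 (-2.14, SE 0.42) and Catsperd (-2.03, SE 0.43) encode auxiliary transmembrane subunits. Catsperz (-1.87, SE 0.38) and Efcab9 (-2.70, SE 0.44) encode the partners of a calcium-sensing module inside the tail. Slco6c1 (-2.39, SE 0.43) encodes a transporter found in the complex and C2cd6 (-2.45, SE 0.44) a protein needed to carry the channel to the tail. At 1 week limma tested 5 of these genes and called 0, against 10% of all genes. For 1 of them the unadjusted p was under 0.05, and their log2 differences ran from -0.79 to 0.46. Catsperg1, Catspere1, Catspere2, Tmem249 and Tmem262 were not analysed here.

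Genes that work beside CatSper in sperm ion transport and calcium signalling showed 12 falls, 1 rise and 1 uncalled gene among 14 tested at 4 weeks, with a median log2 difference of -2.27. Of all genes 34% were called lower and 35.2% higher at this age. The falls included the sperm potassium channel Kcnu1 (-2.22, SE 0.38) and its partner Lrrc52 (-2.71, SE 0.43), the sperm sodium-proton exchanger Slc9c1 (-2.73, SE 0.40) and the bicarbonate-activated adenylyl cyclase Adcy10 (-2.69, SE 0.41). The sperm calcineurin subunits Ppp3cc (-1.79, SE 0.30) and Ppp3r2 (-2.47, SE 0.39) also fell. The gene that rose was the proton channel Hvcn1 (0.83, SE 0.24, limma adjusted p = 0.0187), and Prkaca, a catalytic subunit of protein kinase A that many cell types use, had a log2 difference of 0.15 (limma adjusted p = 0.422). Of all genes 6.06% were called lower at 1 week. In this list 3 of 11 tested genes fell at that age. They were Adcy10 (-2.08, limma adjusted p = 0.0413), Slc9b1 (-1.72, limma adjusted p = 0.0353) and Tcp11 (-1.38, limma adjusted p = 0.0128). Without WT replicate 1, 2 or 3 or Glis3KO2 replicate 1 this count was 1, and with median scaling it was 5. Over all genes 1.7%, 2.66%, 2% and 2.35% were called without those replicates and 17.4% with median scaling, against 10%. Of the 14 genes of the list, 11 to 12 were well above background on 1-week WT arrays and 9 to 11 on Glis3KO2 arrays. A fall at that age can thus be set against background. Atp1a4 and Atp2b4 were not analysed here.

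The pore genes of the ordinary voltage-gated calcium channels, which nerve and muscle use, were mixed. At 4 weeks 3 of 7 tested fell, 1 rose and 3 were not called, with a median log2 difference of -0.66. Over all genes at this age limma called 34% lower and 35.2% higher, so these counts do not set the list apart. Cacna1g (-1.44, SE 0.19), Cacna1h (-1.54, SE 0.26) and Cacna1s (-1.18, SE 0.26) fell and Cacna1d (0.53, SE 0.19, limma adjusted p = 0.0366) rose, and with normexp background correction 2 of the list were called in place of 4. With that correction 61% of all genes were called, against 69.2%. At 1 week limma called 0 of 8, against 10% of all genes, with 2 at an unadjusted p under 0.05.

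**Figure D2:**
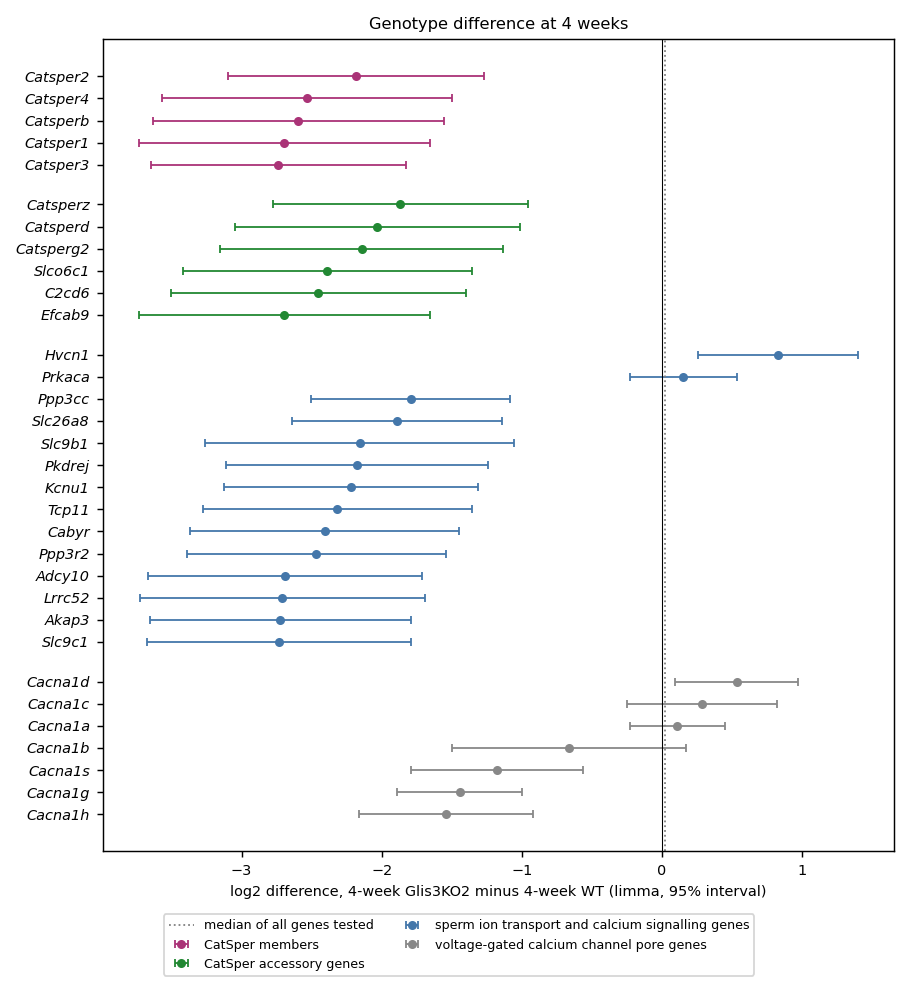
The x axis gives the log2 difference of 4-week Glis3KO2 minus 4-week WT, with the limma 95% interval, for every tested gene of the CatSper genes and the 3 context lists, which are coloured by list. The dotted line at 0.03 is the median of all genes tested, and the 5 CatSper genes and 6 accessory genes lie between -2.74 and -1.87.

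Markers of the germ cell stages that transcribe the channel moved with it, and their part in the result was not tested. Over all genes limma called 34% lower and 35.2% higher at 4 weeks, and 6.06% lower and 3.95% higher at 1 week. Of round spermatid markers 8 of 8 fell at 4 weeks (median log2 difference -2.46), of elongating spermatid markers 11 of 11 (-2.98) and of pachytene spermatocyte markers 7 of 7 (-2.14). The summed level, given as the log2 of the summed signals, of the round spermatid markers was 6.04 to 6.24 on the WT arrays and 3.19 to 4.65 on the Glis3KO2 arrays, and all 8 were well above background on each of these arrays. That of the pachytene markers was 8.47 to 8.64 in WT and 7.05 to 7.97 in Glis3KO2, and that of the elongating spermatid markers 9.46 to 10.02 and 6.17 to 7.47. Of early meiotic markers 5 of 6 fell (-1.30), while 8 of 9 Sertoli cell markers rose (2.04), with summed levels of 6.77 to 6.90 in WT and 8.36 to 8.75 in Glis3KO2. Of 6 spermatogonia markers 4 rose and 1 fell, and of 6 pan-germ-cell markers 4 fell. Of 8 Leydig cell markers 4 fell and 1 rose (median -1.25), with summed levels of 5.06 to 5.41 in WT and 3.35 to 5.02 in Glis3KO2. Of 4 macrophage markers 3 rose, of 3 peritubular markers 2 rose and of 4 epididymis markers 2 fell. At 1 week 3 of 6 pan-germ-cell markers fell, with summed levels of 5.13 to 5.69 in WT and 2.78 to 4.84 in Glis3KO2, and 3 of 6 spermatogonia markers fell. Of the other cell types, 5 of 9 Sertoli, 4 of 8 Leydig and 2 of 4 macrophage markers rose at 1 week, and 0 of 3 peritubular markers. At that age 4 of 7 pachytene markers fell and 1 rose, with summed levels of 2.57 to 2.91 in WT and 1.94 to 2.47 in Glis3KO2, and 2 of 6 round spermatid markers fell, with summed levels of -1.34 to -1.07 and -1.62 to -0.84. The summed levels of the round spermatid markers overlapped between the genotypes. Of these 8 markers, 6 to 7 were well above background on the 1-week WT arrays and 4 to 6 on the Glis3KO2 arrays. For the 7 pachytene markers it was 7 and 5 to 7, so a fall in either list can be set against background. Germ cells have not reached these stages in the first week, so at 1 week these lists do not measure pachytene cells or round spermatids.

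On the single Glis3KO2 arrays the 5 channel genes averaged -2.99, -3.11 and -1.56 relative to the WT mean, and the round spermatid markers averaged -2.96, -3.03 and -1.54. The pachytene markers averaged -2.44, -2.22 and -1.09 and the elongating spermatid markers -2.81, -3.77 and -2.51. Replicate 3 was thus the highest array for the channel and for all 3 marker lists. Taken relative to the mean of the round spermatid markers on the same array, Catsper1, Catsper3, Catsper4 and Catsperb differed between the genotypes by -0.19, -0.23, -0.02 and -0.08, with overlapping arrays. Catsper2 was higher relative to these markers in Glis3KO2, by 0.32, at 3.00 to 3.25 against 2.75 to 2.82 in WT.

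Relative to the elongating spermatid markers all 5 genes were higher in Glis3KO2, with overlapping arrays, by 0.33, 0.84, 0.29, 0.50 and 0.43 in the order Catsper1, Catsper2, Catsper3, Catsper4 and Catsperb. Relative to the pachytene markers all 5 genes were lower in Glis3KO2 without overlap of arrays, Catsper1 by -0.78, Catsper2 by -0.27, Catsper3 by -0.82, Catsper4 by -0.62 and Catsperb by -0.68. These ratios describe the 6 arrays and were not tested. Catsper2 was the gene with the smallest shift against the pachytene list and the only member with arrays apart from the round spermatid list.

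**Figure D3:**
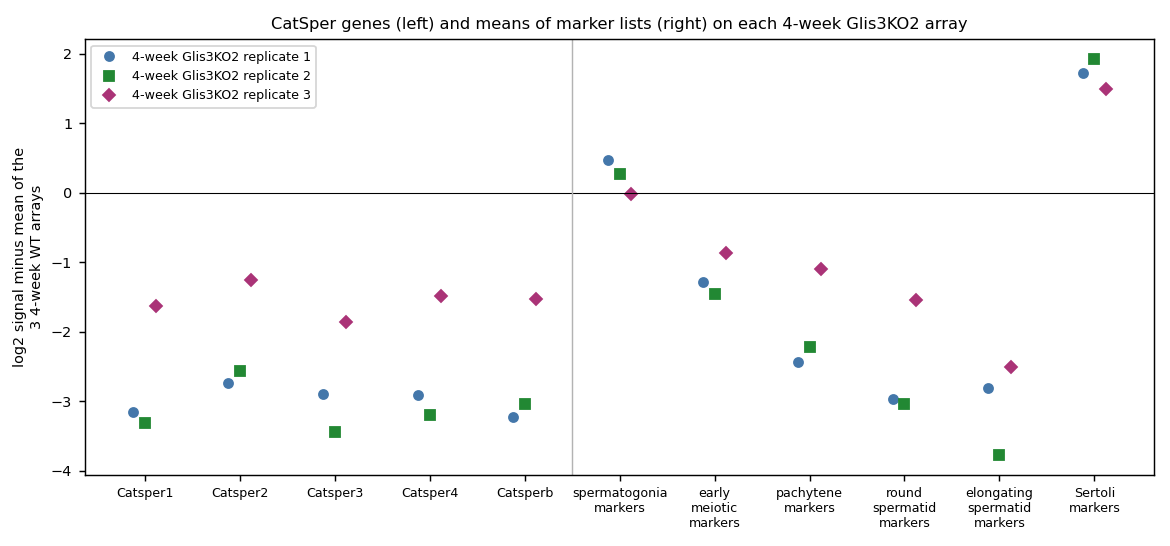
The y axis gives the log2 signal of each 4-week Glis3KO2 array minus the mean of the 3 WT arrays, for the brightest probe of each CatSper gene on the left and the mean of each marker list on the right. Symbols mark the replicates, and replicate 3 is the highest of the 3 for all 5 CatSper genes and for the pachytene, round spermatid and elongating spermatid lists.

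Patterns over the 6 4-week arrays were compared by the root mean square difference of log2 signals after each gene was centred on its own mean, among 15251 genes well above background on all 6. These arrays share 2 groups that differ strongly, so many genes are near each other by this measure. Catsper1 and Catsper4 were the closest pair of channel genes, 0.095 apart, each ranked among the first 48 genes for the other. Catsper2 lay 0.23 to 0.35 from the other members. The genes nearest to Catsper1 were Klhl10 (0.044), Adcy10 (0.047) and Slc16a7 (0.049), and those nearest to Catsper2 were Phf7 (0.022), Adam3 (0.025) and Crem (0.026). Nearest to Catsper3 were Akap3 (0.056), Fam205c (0.058) and Bco1 (0.064), nearest to Catsper4 were Fam71d (0.043), Zfp37 (0.048) and Got1l1 (0.049), and nearest to Catsperb were Zp3r (0.046), Ccdc175 (0.062) and Prr27 (0.063).

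The RefSeq promoter windows of the channel genes differed widely in base composition. Windows of 250 bases on build GRCm38.p6 were held for 4 of the 5 genes, and Catsper1 had none. The window of Catsper2, which was measurable on every 1-week array, had a GC content of 74.8% and 35 CpG dinucleotides, against a median of 6 CpG and quartiles of 2 and 16 over 32851 windows. It lies on the minus strand at chr2:121413793-121414042, inside the span of the RefSeq gene, which reaches to 121414598. The window of Catsperb, at background at 1 week on both probes shown, had 38.0% GC and 1 CpG and lies on the plus strand at chr12:101404423-101404672, overlapping the first bases of the annotated gene. Both are shown because they are the extremes in base composition, and capitals mark the searched motifs.
Catsper2 window: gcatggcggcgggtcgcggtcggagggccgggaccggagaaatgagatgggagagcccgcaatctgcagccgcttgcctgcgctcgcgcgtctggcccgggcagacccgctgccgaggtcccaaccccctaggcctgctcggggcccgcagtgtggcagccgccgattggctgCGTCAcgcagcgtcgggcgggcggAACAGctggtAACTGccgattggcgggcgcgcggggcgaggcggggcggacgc
Catsperb window: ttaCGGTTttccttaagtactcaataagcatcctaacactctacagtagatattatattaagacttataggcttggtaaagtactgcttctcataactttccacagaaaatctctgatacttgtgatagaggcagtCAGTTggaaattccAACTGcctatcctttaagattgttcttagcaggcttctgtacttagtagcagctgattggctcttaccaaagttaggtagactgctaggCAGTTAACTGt

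Catsper3, measurable but low at 1 week, had 54.0% GC and 2 CpG, and Catsper4, at background at 1 week, had 45.2% GC and 1 CpG. The 2 genes measurable on every 1-week array had 35 and 2 CpG, and Catsper4 and Catsperb had 1 each. Catsper3 was thus at the lower quartile of all windows. Catsperb probe A_51_P386448 was well above background on 3 of 4 1-week WT arrays. Whether CpG content goes with 1-week signal was not tested, and 4 windows are too few to decide it. Motifs were searched on both strands. TGACG, part of the site bound by CREM and related factors, occurred once in the Catsper2 window and in none of the other 3, and 17.8% of all windows hold it. AACNG, the core bound by MYB factors, occurred 2 times in Catsper2, 5 times in Catsperb and not in Catsper3 or Catsper4, and 74.2% of all windows hold it. GTTGCC, part of the site bound by RFX factors, and TGGGGGGT, a core bound by GLIS proteins, were in none of the 4 windows and are held by 10.4% and 1.36% of all windows. A match is a run of letters and not a bound site, and its absence here concerns these windows alone.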

How the data were processed

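Testis total RNA was hybridized in 1 colour (Cy3) on Agilent 60-base arrays and read with Agilent Feature Extraction 9.5, per the submitters' processing notes. The deposited scanner files hold intensity values that are background-subtracted and not normalized between arrays, together with flags per spot (0 or 1). The authors' series table equals the processed intensity at all 45018 spots (relative tolerance 1e-06).

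Non-uniform spots were left out, the 75th percentile of each array was subtracted from its log2 signals, and a gene with several probes was given by the brightest. Probes that were well above background on 3 or more arrays of a group were tested with limma 3.58.1 (R 4.3.3), with Benjamini-Hochberg adjustment over all genes and a threshold of 0.05. Each age, and each genotype between ages, had a fit of its own, and 1 fit of 14 arrays gave the difference of the effects. The procedure was tested on simulated data. Named genes are the members, Glis3, the context lists and the 3 most similar genes per member. Members and lists were chosen with earlier results of these data known. Same-numbered samples did not deviate together (correlations -0.26 to 0.15), and samples of unlike number ran from -0.32 to 0.42. Replicate numbers thus gave no sign of pairing, which so few arrays cannot exclude, and samples were treated as unpaired. Probes were named through accessions (22951), symbols (6659) or synonyms (3109), and 8455 kept the file's name. Slide as a random block between ages was added after seeing the data. The other alternatives were median and quantile scaling, normexp, other filters and probe rules, 1 common fit, an intensity trend, slide and replicate blocks, single slides, and each array left out in turn.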

Additional observations from a re-analysis of the deposited data

Results flagged for a closer look

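The genotype effect on Catsper2 and Catsper3 differed between the 2 ages by the limma test of the difference itself. The effect at 4 weeks minus the effect at 1 week was -2.00 for Catsper2 (adjusted p = 0.00142) and -3.19 for Catsper3 (adjusted p = 0.000132), both measured on all 14 arrays. At 4 weeks all 3 Glis3KO2 arrays lay below WT for both genes. The fitted difference was -2.31 for Catsper1 (adjusted p = 0.0168), -1.69 for Catsper4 (adjusted p = 0.0498) and -3.08 for Catsperb (adjusted p = 0.000946) on their brightest probes. These probes were not well above background on any 1-week array, so for these 3 genes the test does not show that the effect changed with age. Catsperb probe A_51_P386448, well above background on 3 of 4 1-week WT arrays, gave -0.64 (adjusted p = 0.589). That probe was well above background on no 1-week Glis3KO2 array, so its value does not measure a change of the effect either. Over the alternatives the Catsper4 value ranged from -2.60 to -1.26, with adjusted p from 0.000207 to 0.132.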

How the results depend on the processing

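All 5 channel genes were called lower at 4 weeks and higher with age in both genotypes under every alternative with a test. The size of the Catsper1 rise with age depended on the background handling. With normexp its log2 difference was 7.24 in WT and 4.36 in Glis3KO2, against 10.56 and 8.25. Results at 1 week were less firm. Over all genes 10% were called at 1 week, against 17.4% with median scaling, 12% with quantile normalization and 8.71% with normexp. It was 15.3% with 1 fit of all arrays, 17.1% with the intensity trend and 15% with the stricter filter. With every probe as its own feature it was 9.99%, with the slide block 2.19% and with the replicate block 1.69%. Without 1 replicate it ran from 1.7% to 15.9%. The counts that follow are to be read beside these shares. Against 0 channel genes called at 1 week, median scaling and quantile normalization each gave 1 (Catsper3), and leaving out 1 replicate gave 0 to 1. Leaving out 1 replicate gave 0 to 1 for the accessory genes. For the sperm ion transport list, 3 of 11 tested genes were called, against 5 with median scaling and 5 of 14 with 1 fit of all arrays. The count was 1 with the replicate block and 1 to 4 without 1 replicate. Against 0 voltage-gated pore genes, median scaling and the intensity trend gave 2 each, and normexp, the stricter filter, every probe as its own feature, 1 fit of all arrays and the slide block gave 1 each; leaving out 1 replicate gave 0 to 1. At 4 weeks normexp called 2 of these genes against 4, and 61% of all genes against 69.2%. The Catsper2 difference at 1 week reversed to 0.074 with median scaling and 0.0065 on slide 2 alone. The Catsperb difference reversed to 0.49 with no filter and with 1 fit of all arrays, where another probe stands for the gene.

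With the replicate block, 381 genes were called at 1 week against 2252, and 13686 against 14651 at 4 weeks. The calls of the 5 genes kept their side of the threshold with it, and the numbers gave no sign of pairing the samples. Over the alternatives the 1-week count ran from 357 to 3908, with 357, 560 and 419 without WT replicates 1, 2 and 3, 3552 without WT replicate 4, and 529 and 828 without Glis3KO2 replicates 1 and 4. Of the 1-week calls 60.5% were lower, against 25.5% with median scaling, 47% with quantile normalization and 48.1% with normexp. Without 1-week Glis3KO2 replicate 4 the Catsper2 difference was -0.053, and with the slide block -0.039. Signal over background limits the 1-week values of Catsper1, Catsper4 and Catsperb.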
